A study of Rattus norvegicus with 8 samples.

Results

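The dopamine receptors of the rat are the products of 5 genes, Drd1 to Drd5, and all 5 were listed among the 17337 gene symbols counted in the striatum of METH and saline self-administered rats. They were taken by symbol as a gene family, with earlier results of these data known. The 8 wild-type animals were male Sprague-Dawley rats that had learned to press a lever for food and carried a jugular catheter. Of these, 4 self-administered methamphetamine (METH) dissolved in saline and 4 self-administered saline alone, on the same schedule and after the same surgery. The study began with more rats, and with more METH than saline rats. It chose 4 a group for plasma sampling, by steady lever pressing over the last days. Whether these were the rats sequenced was not given in the sources used here, nor was the time from the last session to tissue collection. Brains were taken after ketamine and xylazine anaesthesia, and the labels name the striatum without dividing it into dorsal and ventral parts. Polyadenylated RNA was sequenced, and each library held between 18135939 and 21211920 reads assigned to genes.

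Dopamine receptors are G protein-coupled receptors and fall into a pair of families. The D1-like receptors, encoded by Drd1 and Drd5, couple to Gs and to its striatal relative Golf and raise cyclic AMP. The D2-like receptors, encoded by Drd2, Drd3 and Drd4, couple to Gi and Go, lower cyclic AMP and open potassium channels. In the striatum, Drd1 marks the projection neurons of the direct pathway, which also make substance P (Tac1) and dynorphin (Pdyn), whereas Drd2 marks those of the indirect pathway, which make enkephalin (Penk) and the adenosine receptor Adora2a. METH releases dopamine from the terminals that reach these neurons, and METH self-administration is a model in which the receptors are exposed to it repeatedly. In bulk tissue, a change in the number of cells that carry a receptor and a change in its RNA per cell cannot be told apart.

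The tissue carried the defining transcripts of the striatum. Ppp1r1b (DARPP-32, the phosphoprotein that relays dopamine signals) had between 6783 and 10285 CPM in every rat, where CPM is the read count of a gene relative to the TMM-scaled size of its library. Of the 8 genes listed for dopamine neurons, whose cell bodies lie in the midbrain, the dopamine transporter gene Slc6a3 had at most 1 read in any rat, the transcription factor gene Pitx3 at most 3 and Th, the enzyme that starts dopamine synthesis, between 4 and 19. Ddc, Slc18a2 and Aldh1a1, which other cells also use, had 212 to 487, 126 to 238 and 97 to 286 reads, Nr4a2 had 14 to 201, and En1 was not among the symbols counted. METH replicate 3 lay apart from the other METH rats on the first principal component, at 39.5 against 0.257 to 5.29, and receptor values without it are given beside the results. Of the 8 rats, METH replicate 3 also had the fewest genes with counts (13142) and the lowest TMM factor (0.956). Its 10 most counted genes held 6.06% of its reads, the largest such share. Saline replicate 1 held 66 reads of Neurod6 and 1198 of Slc17a7, genes of cortical projection neurons, against at most 13 and 256 in the other rats.

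The reads were spread very unevenly over the 5 genes. Drd1 had between 7973 and 10893 reads per rat and Drd2 between 7958 and 11381. Drd5 had 18 to 33 reads, Drd3 had 2 to 18 and Drd4 had 0 to 10. Drd1 and Drd2 together made up 99.8 ± 0.0358% of all receptor reads in saline rats and 99.8 ± 0.0637% in METH rats (SD, n = 4), a difference that did not pass the exact permutation test (two-sided p = 0.83). Read numbers depend on transcript length, which was not available for the rn6 annotation used, and are therefore not read as an order of abundance. At 3 reads, the smallest number taken as detected, the level is between 0.142 and 0.169 CPM, and Drd4 in 6 of 8 rats and Drd3 in 2 of 8 rats had 3 reads or fewer. Drd4 was removed by the filter on low counts, and the other 4 receptors were among the 12014 genes tested.

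The sequence around a RefSeq transcription start of Drd1 and of Drd2 is shown. These receptors carried nearly all reads, and the groups did not overlap in their ratio. Each run holds 250 bases before and 50 after the start, in the direction of transcription, in assembly GRCr8 (the reads were aligned to rn6). Drd1 lies on the plus strand at chr17:10546354-10546653 and Drd2 on the plus strand at chr8:58605153-58605452. Capitals mark the GC box, GGGCGG on either strand, a binding motif of the Sp family.

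Drd1: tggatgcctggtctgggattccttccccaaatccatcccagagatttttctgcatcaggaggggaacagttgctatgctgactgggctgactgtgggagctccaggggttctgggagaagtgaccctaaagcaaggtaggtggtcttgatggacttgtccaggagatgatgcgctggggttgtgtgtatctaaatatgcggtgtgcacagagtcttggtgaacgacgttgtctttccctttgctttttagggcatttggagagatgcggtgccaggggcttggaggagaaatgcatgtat

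Drd2: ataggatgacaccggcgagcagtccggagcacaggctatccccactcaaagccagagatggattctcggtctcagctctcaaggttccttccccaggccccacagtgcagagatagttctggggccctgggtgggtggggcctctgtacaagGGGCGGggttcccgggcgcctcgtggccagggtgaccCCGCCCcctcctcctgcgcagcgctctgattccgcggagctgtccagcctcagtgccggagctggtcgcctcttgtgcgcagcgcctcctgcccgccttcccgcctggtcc

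The Drd2 window held 2 GC boxes and was 67.3% G or C, and the Drd1 window held 0 and was 51.7% G or C, equal to the median of 33469 RefSeq promoter windows. All 5 receptors were matched in that table. Drd4 and Drd5 had 2 GC boxes each, those of Drd4 overlapping, and Drd3 had 0, and 33.1% of all windows held at least 1. None of the 5 windows held the TATA box letters TATAAA, which 14.2% of windows held, nor the full cyclic AMP response element TGACGTCA, which 1.83% held. These are matches of letters and not shown to be sites of binding. RefSeq lists 3 transcripts of Drd1 and 2 of Drd2, and the windows need not cover every start. Whether the starts shown are those used in the striatum was not tested.

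Drd1, the main D1-like receptor of the direct pathway, was at 474, 451, 515 and 515 CPM in saline replicates 1 to 4 and at 492, 508, 450.2 and 459 CPM in METH replicates 1 to 4. The groups overlapped, and all 8 rats lay within a narrow range. The mean was 489 ± 31.6 CPM in saline rats and 477 ± 27.3 CPM in METH rats (SD, n = 4), with a log2 fold change (METH minus saline) of -0.03 (standard error 0.07, 95% interval -0.19 to 0.12). It was not called by the quasi-likelihood test of edgeR (adjusted p = 0.888 over all genes tested). The interval runs from 0.875 to 1.09 times the saline level, so a larger change of Drd1 in either direction was outside it. Without METH replicate 3 the log2 fold change of Drd1 was -0.01.

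Drd2, which acts both on indirect-pathway neurons and as the autoreceptor on dopamine terminals, was at 437, 424, 459 and 466 CPM in saline replicates 1 to 4. It was at 474, 542, 563 and 455 CPM in METH replicates 1 to 4. Of the METH rats, 3 lay above every saline rat, while METH replicate 4 lay among them. The means were 446 ± 19.3 CPM in saline rats and 508 ± 51.9 CPM in METH rats (SD, n = 4), and the log2 fold change was 0.19 (standard error 0.08, 95% interval 0.01 to 0.36). By the edgeR quasi-likelihood fit across all genes Drd2 was not called (adjusted p = 0.421), its p before adjustment being 0.0361. The exact permutation test of the level gave a two-sided p of 0.0857. Without METH replicate 3 the log2 fold change was 0.14, with an adjusted p of 0.733 in the edgeR test. The counts are per gene, so the long and short splice forms of the D2 receptor were not told apart. In the RefSeq table Drd2 lies between Tmprss5 and Ankk1, and 0 genes overlap any of the 5 receptors. The library kit does not mark strand.

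With 4 receptors tested, 0 were called, and over all genes 62 of 12014 were called (0.516%). At an unadjusted p under 0.05 the count was 1 receptor, Drd2, against 1338 genes or 11.1% of all tested. None of the 4 separated METH from saline rats in CPM without overlap, which 6.39% of all genes did.

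**Figure D1:**
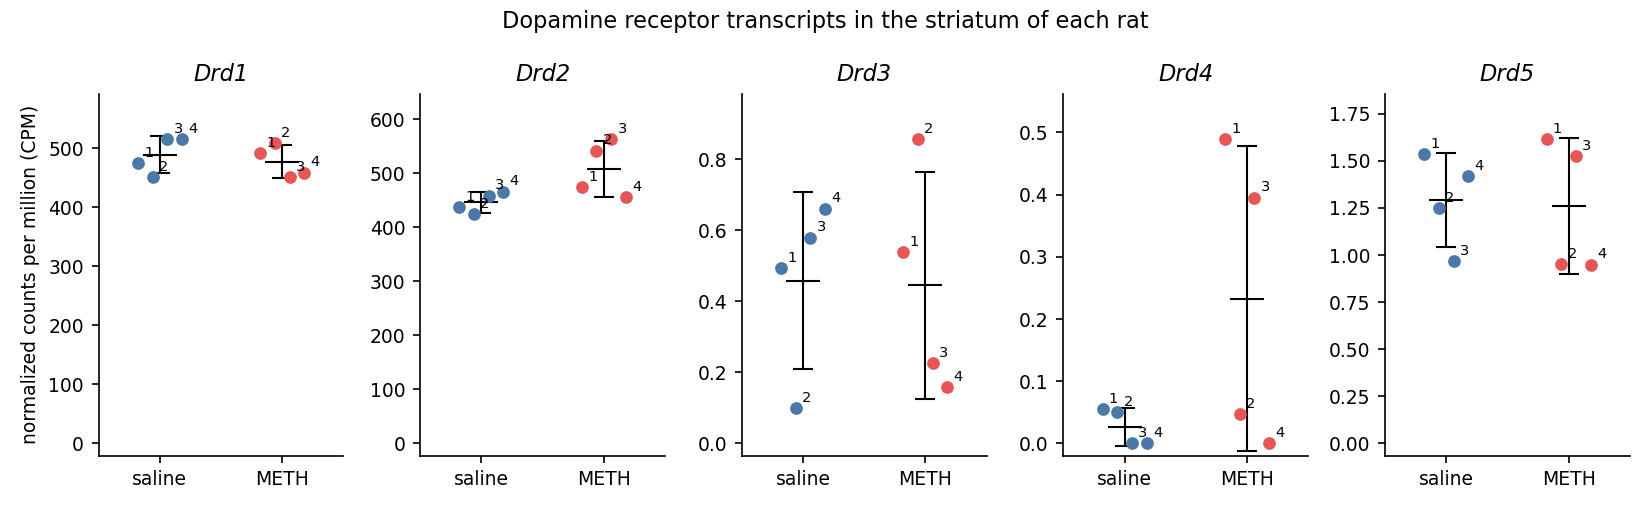
Level (CPM) of each receptor in each rat, with saline rats in blue and METH rats in red. Digits are the replicate numbers, the long bar is the mean and the whiskers are the SD (n = 4). Each panel has its own axis, and in the Drd2 panel 3 METH rats lie above every saline rat while METH replicate 4, at 455 CPM, lies among them.

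**Figure D2:**
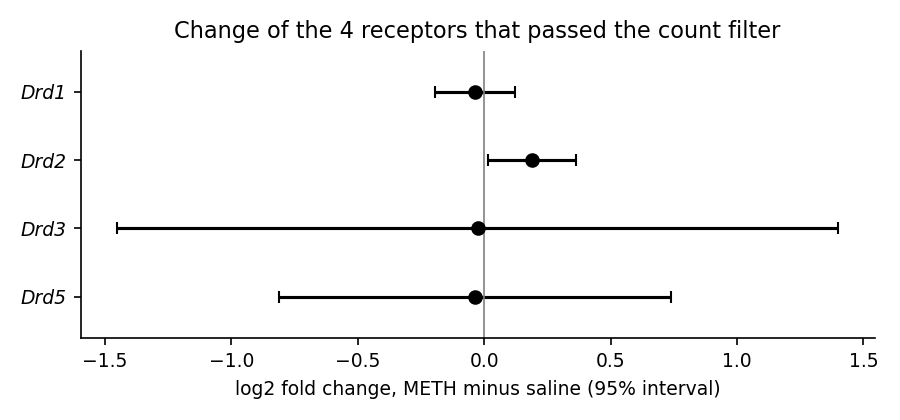
Log2 fold change of the 4 receptors that passed the count filter (METH minus saline, points) with the 95% interval of the edgeR quasi-likelihood fit (bars). The interval of Drd2 runs from 0.01 to 0.36, and that of Drd3 is the widest, from -1.45 to 1.40.

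Because Drd1 and Drd2 were read from the same library, their ratio does not depend on how the libraries are scaled. In saline replicates 1 to 4 there were 1.09, 1.06, 1.12 and 1.10 Drd1 reads for each Drd2 read. In METH replicates 1 to 4 there were 1.04, 0.938, 0.800 and 1.01. Every METH rat lay below every saline rat, and METH replicate 3 was the lowest. The mean ratio was 1.09 ± 0.0256 in saline rats and 0.946 ± 0.106 in METH rats (SD, n = 4). The log2 ratio differed by -0.22 (METH minus saline), with an exact permutation two-sided p of 0.0286, the smallest that 4 rats against 4 allow. This was 1 of 7 exact tests of receptor levels, ratio and share. Outside that count, the same permutation was run on the unlogged ratio, the share of Drd1 and the summed level of each gene list. The unlogged ratio, the share of Drd1 and the summed direct-pathway markers reached the same p. The p of the log2 ratio is not adjusted for the number of these tests. Without METH replicate 3 the difference in the log2 ratio was -0.14 (exact permutation p = 0.0286). With a saline rat left out the p was 0.0571 (replicate 2) or 0.0857 (replicates 1, 3 and 4), and the difference lay between -0.23 and -0.20.

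The spread of the ratio was wider in METH rats, with an SD of the log2 ratio of 0.034 in saline rats and 0.17 in METH rats. Much of the METH spread came from replicate 3, at -0.32 against -0.09 to 0.05 in the other METH rats. The difference in spread was not tested. In saline rats the levels of Drd1 and Drd2 were ordered alike except for replicates 3 and 4, whose Drd1 was level. In METH rats, replicate 3 had the lowest Drd1 and the highest Drd2. Expressed as a share, Drd1 made up 52.1 ± 0.584% of receptor reads in saline rats and 48.4 ± 2.89% in METH rats (SD, n = 4).

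**Figure D3:**
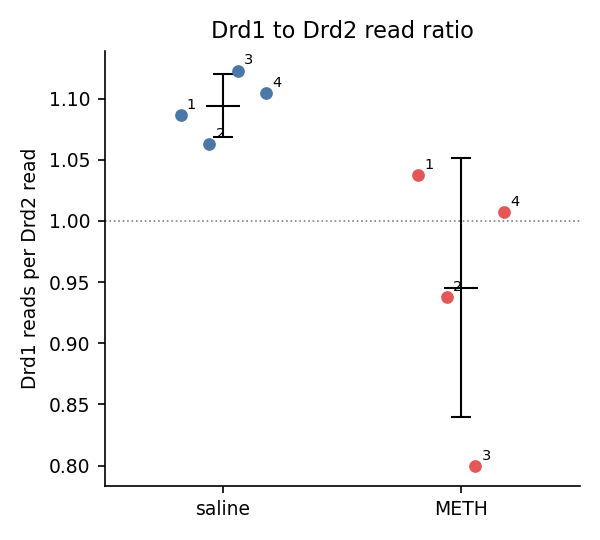
Number of Drd1 reads for each Drd2 read in every rat (points, with replicate numbers), with the mean (long bar) and SD (whiskers, n = 4). The dotted line marks equal read numbers. The 4 saline rats lie between 1.06 and 1.12 and the 4 METH rats between 0.800 and 1.04. The vertical axis does not start at 0.

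Other markers of the neurons that carry Drd1 and Drd2 were read beside the ratio. Of 7 direct-pathway markers listed and tested, 0 were called, 3 had a log2 fold change above 0 and 4 below, with a median of -0.01 against -0.01 over all genes. Pdyn, the dynorphin precursor, was at 355 ± 20.8 CPM in saline rats and 409 ± 33.2 CPM in METH rats (SD, n = 4), with a log2 fold change of 0.20 and an adjusted p of 0.369 in the edgeR test. Tac1, the substance P precursor, had a log2 fold change of 0.15 (adjusted p = 0.491, edgeR). The third gene above 0 was Chrm4, a muscarinic receptor (0.10), and those below were Isl1 (-0.14), Slc35d3 (-0.10), Sfxn1 (-0.06) and Ebf1 (-0.01). In 0 of the 7 did the groups not overlap, where 6.39% of all tested genes had groups without overlap. Over all genes 0.516% were called and 6172 of 12014 were below 0. A count of 0 on this list or on the short lists that follow is close to those shares of calls and of groups without overlap. Lists that hold genes without overlap are named below. Summed over the list, the level was 1142 to 1199 CPM in saline rats and 1244 to 1346 CPM in METH rats. Tac1, Pdyn and Chrm4 have the highest levels in this sum. The groups did not overlap in it (exact permutation two-sided p = 0.0286, not adjusted). The part of these markers in the ratio of Drd1 to Drd2 was not tested.

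Of 7 indirect-pathway markers, 0 were called, 1 was above 0 and 6 below, with a median of -0.06 and a summed level of 3540 to 4169 CPM in saline rats and 3736 to 4586 CPM in METH rats. The gene above 0 was Penk, the enkephalin precursor, with a log2 fold change of 0.14 (adjusted p = 0.562, edgeR). Sp9, a transcription factor of indirect-pathway neurons, had -0.20 (adjusted p = 0.535, edgeR). Adora2a, the adenosine receptor that opposes the D2 receptor, was at 970 ± 72.6 CPM in saline rats and 964 ± 98.6 CPM in METH rats (SD, n = 4). Among the 6 markers of cholinergic interneurons, which carry Drd2 and Drd5, 0 were called, and Chat, the acetylcholine-synthesizing enzyme, was at 29.3 ± 4.13 CPM in saline rats and 31.0 ± 3.94 CPM in METH rats (SD, n = 4). Slc5a7, the choline transporter, had a log2 fold change of -0.28 (adjusted p = 0.467, edgeR) and Slc17a8, a vesicular glutamate transporter of these interneurons, had -0.25 (adjusted p = 0.483, edgeR). Among 8 markers shared by all projection neurons 0 were called, and Ppp1r1b had the lowest unadjusted p (log2 fold change 0.25, adjusted p = 0.328, edgeR), followed by Rgs9, a regulator of G protein signalling (0.15, adjusted p = 0.583, edgeR).

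Across the 8 rats, 5 relations between a receptor and another gene were computed on the log2 CPM scale, and none passed a permutation test. Drd1 and Drd2 had a Pearson r of 0.066 (exact permutation p = 0.851, adjusted over the 5 relations 0.892) and a Spearman rho of 0.095 (exact permutation p = 0.840, adjusted 0.882), and r was 0.45 without METH replicate 3 and saline replicate 2. Drd2 and Adora2a had an r of 0.62 (exact permutation p = 0.0865, adjusted 0.407) and a rho of 0.60 (exact permutation p = 0.132, adjusted 0.661), and r was 0.27 without METH replicates 2 and 3. After each gene was set against its own group mean, r was 0.90 for Drd2 and Adora2a, 0.42 for Drd2 and Penk, 0.30 for Drd1 and Drd2, 0.10 for Drd1 and Tac1 and -0.32 for Drd1 and Pdyn, where all points share the scaling of their library. Drd2 and Penk had an r of 0.59 (exact permutation p = 0.163, adjusted 0.407) and a rho of 0.29 (exact permutation p = 0.501, adjusted 0.835), and r was -0.02 without METH replicates 2 and 3. For Drd1 and Tac1 r was -0.06 (exact permutation p = 0.892, adjusted 0.892) and rho -0.07 (exact permutation p = 0.882, adjusted 0.882), and for Drd1 and Pdyn r was -0.37 (exact permutation p = 0.346, adjusted 0.576) and rho -0.33 (exact permutation p = 0.428, adjusted 0.835). Without METH replicate 3 and saline replicate 2, r was -0.62 for Tac1 and -0.47 for Pdyn.

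As a description with no test, the genes whose log2 CPM followed each receptor most closely over the 8 rats were taken from 10974 candidates. For Drd1 they were Hspa9 (r = 0.98), Fmr1 (r = 0.97) and Sf3b3 (r = 0.97). For Drd2 they were Cntnap1 (r = 0.98), Slc26a10 (r = 0.97) and Crebbp (r = 0.97). No gene was in both sets, which the r of 0.066 between Drd1 and Drd2 fixes in advance. For Drd5 they were Nipal4 (r = 0.98), Rexo2 (r = 0.97) and Sdhd (r = 0.96), and for Drd3 they were Ipo4, Mettl13 and Kpna2 (each r = 0.92), where the receptors' own counts are low.

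Drd5, the second D1-like receptor, had 28, 25, 20 and 30 reads in saline replicates 1 to 4 and 33, 20, 27 and 18 reads in METH replicates 1 to 4. The groups overlapped at both ends. The mean was 1.29 ± 0.247 CPM in saline rats and 1.26 ± 0.360 CPM in METH rats (SD, n = 4), with a log2 fold change of -0.04 (95% interval -0.81 to 0.74, adjusted p = 0.981 in the edgeR test). Its spread between saline rats, 19.1% of the mean, was close to the 20.0% that counting alone gives at this number of reads, and that between METH rats was 28.5%. The interval ran from 0.570 to 1.67 times the saline level, and the size of change that could be detected was not tested. Without METH replicate 3 the log2 fold change was -0.14.

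Drd3, a D2-like receptor known from the ventral striatum, had 9, 2, 12 and 14 reads in saline replicates 1 to 4 and 11, 18, 4 and 3 reads in METH replicates 1 to 4. Low rats were found in both groups. The mean was 0.459 ± 0.249 CPM in saline rats and 0.445 ± 0.321 CPM in METH rats (SD, n = 4). Its log2 fold change of -0.03 had a 95% interval of -1.45 to 1.40 (adjusted p = 0.993, edgeR). The sign changed when 1 rat was left out, with a range of -0.55 to 0.25, and was 0.18 without METH replicate 3.

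Other genes enriched in the ventral striatum are given beside Drd3, and the difference between their changes and that of Drd3 was not tested. Cartpt, the CART peptide precursor, was at 22.9 ± 9.40 CPM in saline rats and 6.81 ± 3.82 CPM in METH rats, with a log2 fold change of -1.74 that was not called (adjusted p = 0.0632, edgeR). Calcr, the calcitonin receptor, had 58, 123, 185 and 49 reads in saline rats and 3, 44, 1 and 34 reads in METH rats (log2 fold change -2.31, adjusted p = 0.227, edgeR). Drd3 had 11 reads in METH replicate 1, where Calcr had 3, and 4 reads in METH replicate 3, where Calcr had 1. In METH replicate 2 Drd3 had 18 reads and Calcr 44, and in METH replicate 4 Drd3 had 3 and Calcr 34. Of the 4 genes on this list, 0 were called, 3 were below 0 and 1, Nts (neurotensin), was above. In 2 of the 4, Cartpt and Calcr, every METH rat lay below every saline rat in CPM. Among all tested genes 6.39% had groups without overlap. Whether the share of ventral tissue differed between the dissections was not tested.

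Drd4, a D2-like receptor with high expression in the retina and pineal gland, had 1, 1, 0 and 0 reads in saline replicates 1 to 4 and 10, 1, 7 and 0 reads in METH replicates 1 to 4. METH replicates 1 and 3 held 17 of the 20 reads, and METH replicates 2 and 4 were at the level of the saline rats. The ratio of the summed reads was 9.23 (METH to saline, exact conditional 95% interval 2.21 to 82.0), an interval that covers counting error only. It was 5.55 without METH replicate 1, 7.29 without METH replicate 3 and 1.00 without both. Over the rats, the exact permutation test of the level gave a two-sided p of 0.343, and when no filter beyond 1 count was applied the adjusted p was 0.445 (edgeR). No difference between the groups of rats was detected.

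Genes of the pineal gland were read beside Drd4 after its values had been seen. Tph1, the tryptophan hydroxylase that is abundant in the pineal gland, had 344 reads in METH replicate 1 and at most 9 in any other rat. Crx, a transcription factor of the pineal gland and retina, had 8 reads in METH replicate 1 and 0 in each other rat. Aanat, the melatonin-pathway enzyme, had 2 reads there and at most 1 elsewhere, and Asmt had 28 to 72 reads in all rats. Summed over these 4 markers, the level was 1.65 to 2.93 CPM in saline rats and 2.21 to 20.8 CPM in METH rats. In METH replicate 3, the other rat with Drd4 reads, Tph1 and Crx had 0 reads, whereas Ttr, a choroid plexus gene, had 36 reads there, 28 in METH replicate 1 and at most 4 elsewhere. The other 3 choroid plexus markers did not have their highest reads in both of these rats. Folr1, a folate receptor, had 83 reads in METH replicate 1 and 53 in METH replicate 3, the lowest of the METH rats. Kl (klotho) had 7 and 6 reads there against up to 14 in saline rats, and Aqp1, a water channel, had 10 and 12 against up to 14. Summed over the 4, the level was 2.798 to 4.78 CPM in saline rats and 4.28 to 6.26 CPM in METH rats. Of the genes beside Drd4, Deaf1 was at 67.8 CPM in METH replicate 3 and at 48.98 to 57.1 CPM in the other rats, and Sct had 1 read each in METH replicates 1 and 3 and saline replicate 4. The part of pineal or choroid plexus RNA in the Drd4 reads was not tested.

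**Figure D4:**
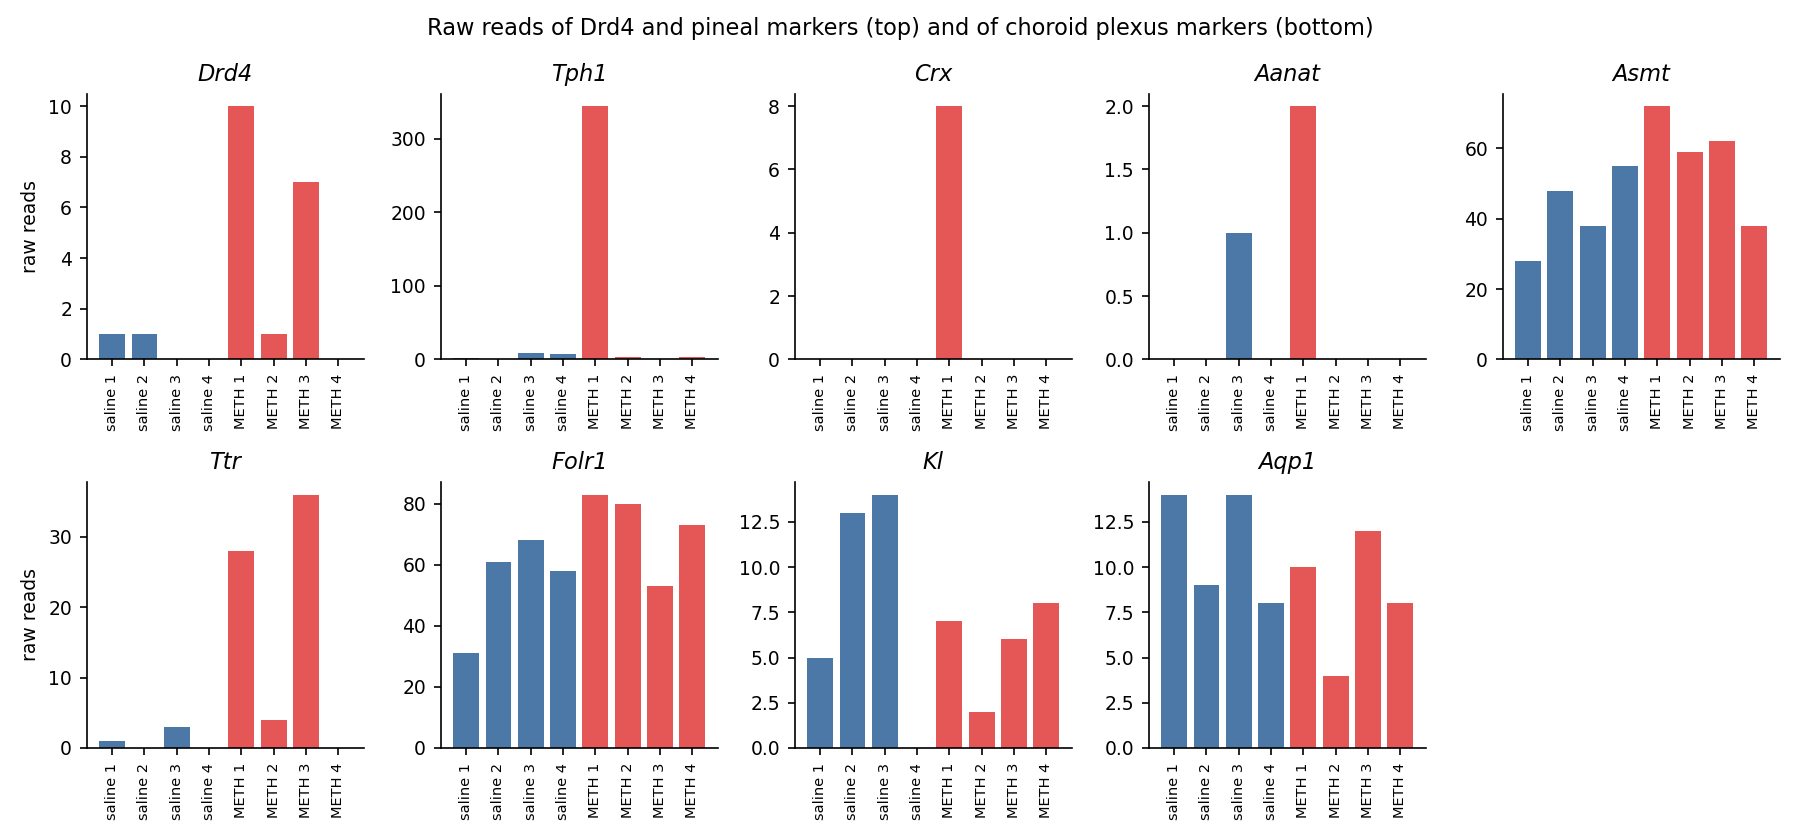
Raw reads per rat of Drd4, of the pineal markers Tph1, Crx, Aanat and Asmt, and of the choroid plexus markers Ttr, Folr1, Kl and Aqp1 (saline rats in blue, METH rats in red, each panel with its own axis from 0). METH replicate 1 is the highest for Drd4 and for all 4 pineal markers, while METH replicate 3 has 7 reads of Drd4 and 36 of Ttr, 0 of Tph1 and Crx, and the fewest Folr1 reads of the METH rats.

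The proteins that carry the receptor signal were then examined on lists chosen with earlier results known. Among 11 tested genes of the Gs and Golf proteins and adenylyl cyclases, through which D1-like receptors act, 0 were called and the median log2 fold change was -0.03. Gnal, the Golf alpha subunit that couples the D1 receptor in the striatum, had a log2 fold change of 0.01, and Adcy5, the main striatal adenylyl cyclase, had -0.02. Gng7, the gamma subunit that assembles with Golf, had the lowest unadjusted p of the list (log2 fold change 0.14, adjusted p = 0.469, edgeR). Adcy1, a calcium-stimulated cyclase, had -0.38 (adjusted p = 0.537, edgeR). Adcy9 was on the list but not among the symbols counted.

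Among 9 genes of the Gi and Go proteins and of the GIRK potassium channels that D2-like receptors open, 0 were called, 2 were above 0 and 7 below, with a median of -0.09. Gnai1, an alpha subunit of Gi, was at 111 ± 12.3 CPM in saline rats and 89.96 ± 14.3 CPM in METH rats, with a log2 fold change of -0.30 (adjusted p = 0.373, edgeR). Kcnj6, a GIRK channel subunit, had a log2 fold change of -0.60 (adjusted p = 0.530, edgeR), and Gnao1, the Go alpha subunit, had -0.09.

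Receptor kinases and arrestins switch off and internalize the receptors after activation. Of 7 tested, 0 were called, with a median log2 fold change of -0.03. Grk5, a receptor kinase, was at 20.4, 25.2, 25.4 and 18.4 CPM in saline replicates 1 to 4 and at 13.4, 18.1, 14.6 and 18.8 CPM in METH replicates 1 to 4. METH replicate 4 lay just above the lowest saline rat, and the other METH rats lay below all saline rats. The log2 fold change of Grk5 was -0.46 with a standard error of 0.15 (adjusted p = 0.251, edgeR, and 0.00690 before adjustment). Grk6, another receptor kinase, had 0.12 (adjusted p = 0.632, edgeR). Grk2, listed under its older symbol Adrbk1, had a log2 fold change of 0.07 and Arrb2, an arrestin that binds the D2 receptor, had -0.06.

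Of 13 proteins that bind or transport the receptors, 0 were called, 8 were above 0 and 5 below, with a median of 0.06. Clic6, a chloride channel-like protein that binds D2-like receptors, had 35, 20, 30 and 37 reads in saline rats and 64, 32, 47 and 63 reads in METH rats (log2 fold change 0.79, adjusted p = 0.412, edgeR). Cadps, a protein of vesicle release that binds the D2 receptor, had a log2 fold change of -0.29 (adjusted p = 0.421, edgeR). Caly (calcyon), named for its link to the D1 receptor, had 0.08, and Ncs1, a calcium sensor that binds the D2 receptor, had -0.07.

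Among the lists for cells that share the dissected tissue, 1 gene was called. Cx3cr1, the microglial fractalkine receptor, fell by 0.73 on the log2 scale (adjusted p = 0.0408, edgeR), and its call was lost when saline replicates 2 or 3 or METH replicates 1 or 3 were left out. The microglial list as a whole had 4 of 4 genes below 0, with a median of -0.26, and its summed level was 184 to 210.1 CPM in saline rats and 149 to 186 CPM in METH rats. The astrocyte list had 0 of 4 genes called, with a median of 0.08. Gfap, an astrocyte filament protein, and Aldh1l1, an astrocyte enzyme, had its lowest p (log2 fold changes 0.40 and 0.21). Its summed level overlapped between the groups, at 1425 to 1639 CPM in saline rats and 1359 to 1738 CPM in METH rats. The 3 cortical genes tested had 0 calls (Slc17a7 -1.54, Cux2 -0.20), as had the 5 midbrain genes (Aldh1a1 0.72, Nr4a2 -1.12) and the 1 choroid plexus gene (Folr1 0.45). The groups did not overlap in 1 of the 5 midbrain genes, Aldh1a1, and in 1 of the 4 microglial genes, Cx3cr1. Over all tested genes 6.39% had groups without overlap. The negative values of Slc17a7 and Nr4a2 rest on saline replicate 1, with 1198 and 201 reads against at most 76 and 33 in the other saline rats. Without that rat, left out after seeing the data, the saline mean was 3.33 CPM for Slc17a7 and 1.47 CPM for Nr4a2, below the METH means of 6.44 CPM and 1.76 CPM.

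**Figure D5:**
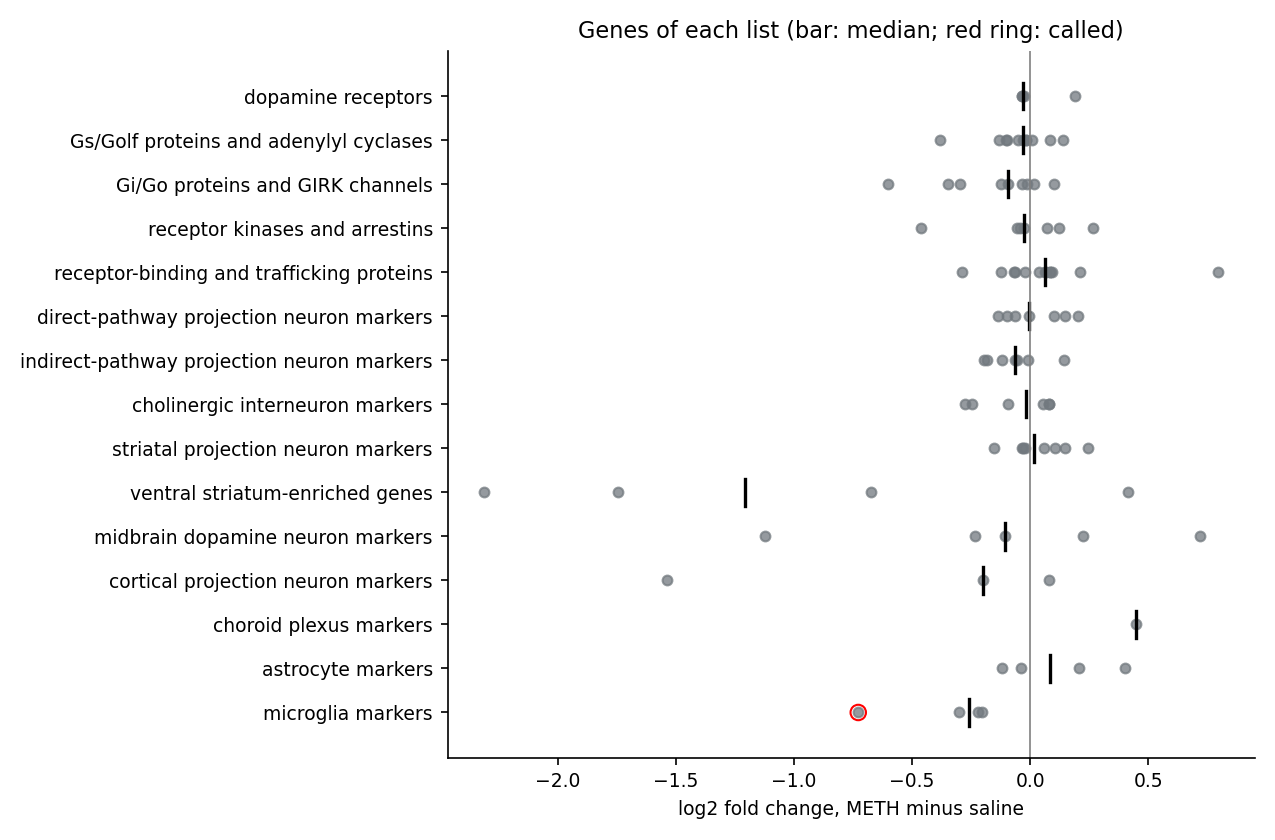
Log2 fold change (METH minus saline) of the tested genes of each list described (grey points), except the pineal genes and the genes beside the receptors. The black bar is the median of the list, and a red ring is drawn around the called gene, Cx3cr1 of the microglia list. The receptors lie between -0.04 and 0.19, and the largest negative values belong to the ventral striatum-enriched genes Calcr and Cartpt.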

How the data were processed

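Striatal RNA of 8 rats (4 saline, 4 METH) was analysed. Per the labels and methods, adapters were removed with cutadapt 1.18, STAR 2.7.0e placed the reads on rn6, and featureCounts (Subread 1.6.4) gave the authors gene counts. They deposited raw counts per gene symbol, without normalization or pooling. Columns were matched to rats by group and number. The annotation and strand setting were not given in the sources used here.

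Counts were filtered with filterByExpr (minimum count 10), scaled by TMM and compared with the quasi-likelihood test of edgeR 4.0.16 in R 4.3.3, with Benjamini-Hochberg adjustment over all 12014 genes. The fit was checked on simulated data. Genes were called at an adjusted p below 0.05 with a mean log2 CPM above 1. Log2 CPM used a prior count of 2, and the log2 ratio of Drd1 to Drd2 a pseudocount of 0.5. Single values and summed list levels were compared by exact permutation over the 70 labellings of 4 of 8 rats. The relations between a receptor and another gene and the interval of the Drd4 read ratio used scipy 1.17.1. The genes most correlated with each receptor were found in R. Standard errors and intervals of fold changes were derived from the F statistic and degrees of freedom of the quasi-likelihood test. Totals of 18135939 to 21211920 reads limit precision, and count intervals cover counting error only. Within groups, every pair of rats differed beyond counting noise (chi-square statistic 10.1 to 27.6 times its degrees of freedom).

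The receptors and gene lists were chosen with earlier results of these data known. The text names the 5 receptors, the markers used in the correlations, of each list the called genes or otherwise the 2 with the lowest unadjusted p, and the 3 genes most correlated with each receptor. Other genes, such as Grk2, Arrb2, Caly, Ncs1, Gnal, Adcy5, Gnao1, Chat, Nts, Th, Slc6a3, Neurod6, Ttr and the pineal and neighbouring genes, were named after their values were seen. Alternatives were other tests (exact, likelihood ratio, DESeq2 1.42.0, limma-voom with limma 3.58.1), scalings, filters and thresholds, the replicate number as a block, and each rat left out. Same-numbered rats are different animals. The results of 1 further marker list are not reported here.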

Additional observations from a re-analysis of the deposited data

Results flagged for a closer look

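Within each group of 4 rats, the rat farthest out was set against its nearest neighbour, as a part of the group's range, for 22 groups of values (the 5 receptors, the Drd1 to Drd2 ratio, the receptor share and 4 library measures), and 2 were past Dixon's 95% critical value, where chance gives about 5% of groups. METH replicate 3 lay apart on the first principal component (0.872 of the range), and saline replicate 2 had the most genes with counts, 13410, the others lying between 13371 and 13376 (0.872). No receptor level and neither the ratio nor the share was past that value.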

How the results depend on the processing

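No receptor was called under any alternative that gave it an adjusted p. With all rats kept, the log2 fold change of Drd2 lay between 0.15 and 0.19 (adjusted p 0.325 to 0.652) and that of Drd1 between -0.07 and -0.03. With 1 rat left out, the ranges were -0.07 to -0.0076 for Drd1, 0.14 to 0.24 for Drd2, -0.55 to 0.25 for Drd3 (sign changed in 5 of 8) and -0.18 to 0.079 for Drd5 (4 of 8), -0.031 to 0.020 percentage points for the share of Drd1 and Drd2 (3 of 8), and -0.26 to -0.14 for the log2 ratio of Drd1 to Drd2. The rat numbers mark different animals and did not pair (mean correlation of deviations -0.085). With them as a replicate block, the log2 ratio difference was -0.22 with an exact sign-flip permutation p of 0.125, the smallest that 4 pairs allow, and 37 genes were called (35 higher, 2 lower, 0 on the lists). Over all genes, 62 were called (54 higher, 8 lower). The exact test gave 168 (130 and 38), the likelihood ratio test 170 (131 and 39), DESeq2 191 (141 and 50), and every gene with at least 1 count gave 13 lower. On the lists these 4 alternatives and Actb scaling gave 2 lower genes in place of 1. With 1 rat left out, 37 to 70 genes were called, 35 to 66 higher and 2 to 9 lower, and 0 to 1 on the lists. The cause of these differences was not tested. The Drd4 read ratio without METH replicates 1 and 3 was chosen after seeing the data. Low counts and a spread between rats beyond counting limit Drd3 and Drd4, and low counts limit Drd5.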
